A study of Homo sapiens with 6 samples.

Results

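The genes described here are 10 protein-coding members of the fibroblast growth factor (FGF) system that lie outside the cluster of FGF genes at 11q13. They comprise the ligands FGF2, FGF18 and FGF20, the ligand carrier FGFBP1, the receptors FGFR1, FGFR2, FGFR3 and FGFR4, the kinase-less receptor FGFRL1 and the co-receptor KLB. They were picked by gene symbol among the 58735 genes of the expression table, and each symbol matched 1 protein-coding gene. Expression was measured by RNA-seq in NCI-N87, an established human gastric carcinoma cell line, with 3 control samples (shCtrl, titled shNC) and 3 samples with SCAMP1 knockdown (shS1#1, titled shScamp1). Cells of both groups were infected with lentivirus in the presence of polybrene and kept as puromycin-selected populations (2 μg/ml), the controls carrying the empty pSIH-H1-puro vector and the knockdown cells the same vector with a single shRNA against SCAMP1. The knockdown group therefore stands for 1 shRNA in 1 cell line, and its control holds no shRNA. The titles call the samples biological replicates without saying whether they came from separate infections, so the p-values measure the spread between these samples.

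Fibroblast growth factors are secreted proteins that bind receptor tyrosine kinases together with heparan sulphate chains on the cell surface. Ligand binding pairs the receptors, which phosphorylate the adaptor FRS2 and feed the RAS-ERK and PI3K-Akt pathways, while Sprouty proteins and dual-specificity phosphatases are induced as feedback inhibitors. In the stomach, FGFR2 is best known as a gene amplified in a subset of cancers. FGFR4 with KLB forms the receptor for FGF19, a hormone-like FGF.

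The libraries held from 14311769 to 15988700 reads on genes, recovered from the deposited values. SCAMP1 was 86.0% lower in shS1#1 cells, so the knockdown was present in the libraries labelled with it. Mitochondrial genes took 9.21% of the reads in shS1#1 replicate 2 and from 6.09% to 6.78% in the other 5 libraries. Of 8 epithelial markers, 8 were expressed. Their summed level was between 5534 and 5818 FPKM in shCtrl and between 9241 and 10154 FPKM in shS1#1 libraries. KRT8, KRT18, KRT19, CLDN4 and CDH1 (5 of 8) were called higher, beside 1372 of all 15556 genes tested. EPCAM, CLDN3 and ERBB2 were not called. The mean rose from 1534 to 3002 FPKM for KRT8, from 875 to 2000 for KRT18 and from 1688 to 2844 for KRT19. The part of this shift in the results below was not tested. The 7 fibroblast markers summed to at most 0.773 FPKM in any library, with COL1A2, DCN, LUM and PDGFRA at 0 reads throughout, and endothelial and leukocyte markers to at most 0.612 and 0.656 FPKM. In bulk RNA, fewer cells of a kind and less RNA per cell cannot be told apart.

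Of the 10 genes, 8 reached a mean of 0.5 FPKM (fragments per kilobase of gene length, scaled to library size) over the 6 libraries and were tested with limma on log2(FPKM + 0.1). FGF20, FGF18, FGFR3, FGFR4 and FGFRL1 were lower in shS1#1 cells at an adjusted p under 0.05, and 0 of the 8 were higher. These 5 of 8 (62.5%) stand beside 5.17% of all 15556 genes tested that were called lower, and 14.0% called in either direction. The members were chosen with earlier results of these data known, so this contrast is no independent test. Lower calls were 805 of 2177 over all genes, and 1268 of 2406 with libraries scaled to total reads, a setting in which the same number of members was called, all lower. FGF20 alone also passed an absolute log2 fold change of 1, as did 3.16% of all genes tested. The FPKM of the same 5 genes did not overlap between the groups, against 21.0% of all genes tested that were lower with no overlap. The median log2 fold change of the 8 was -0.50, and that of all genes tested was -0.02. The call was held by FGF20 and FGFRL1 in each of the 6 fits that left out 1 library, by FGFR4 in 5, and by FGFR3 and FGF18 in 1 fit each, the one without shS1#1 replicate 2. In all, 2 members were called without shCtrl replicate 2, and 3 without shCtrl replicate 1, shCtrl replicate 3, shS1#1 replicate 1 or shS1#1 replicate 3. Every p of a single gene by the exact permutation test over the 6 libraries was at least 0.1, the smallest that 3 samples against 3 allow.

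**Figure D1:**
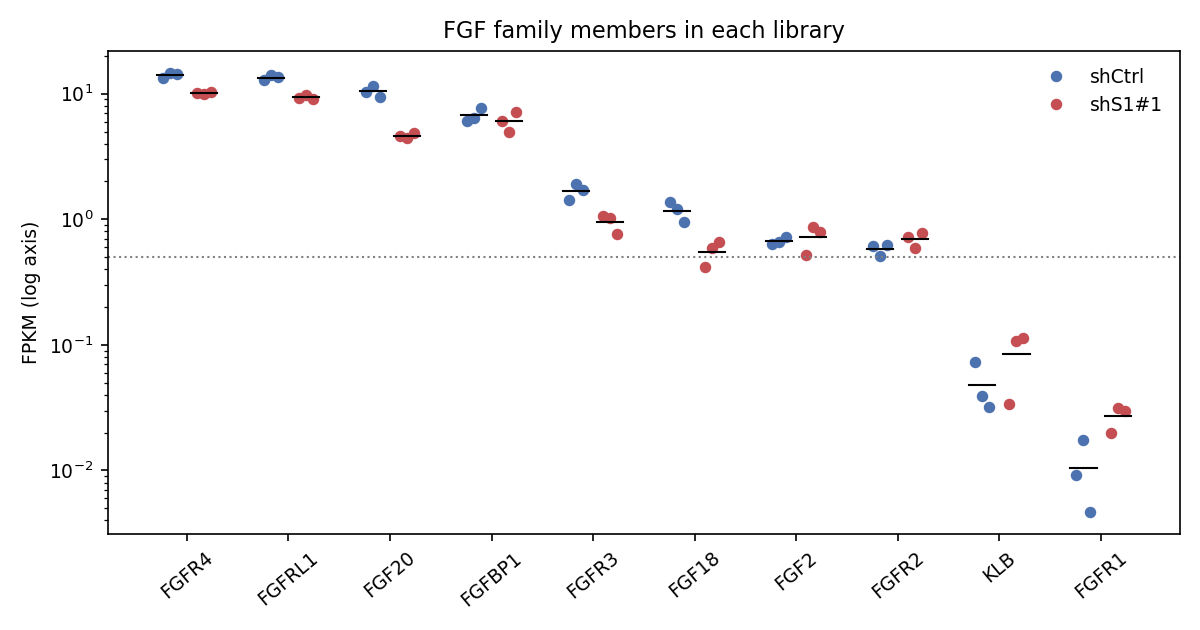
FPKM (log axis) of the 10 genes in each of the 6 libraries. Points are single libraries, black bars are group means, and the dotted line marks 0.5 FPKM, the mean over all libraries that a gene needed to be tested. For FGFR4, FGFRL1, FGF20, FGFR3 and FGF18 the shS1#1 points lie below all shCtrl points, while KLB and FGFR1 lie far under the line.

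FGF20, a secreted ligand of the FGF9 subfamily known from inner ear and hair follicle development, was the highest of the 3 ligands. It was at 10.4, 11.5 and 9.43 FPKM in shCtrl replicates 1 to 3 and at 4.62, 4.46 and 4.86 FPKM in shS1#1 replicates 1 to 3. Every shS1#1 library was thus well below the lowest shCtrl library, and the shS1#1 libraries lay closer together. The mean fell by 55.5%, from 10.4 ± 1.03 to 4.65 ± 0.202 FPKM (SD, n = 3 per group). The log2 fold change of FGF20 was -1.15 (95% interval -1.37 to -0.93, adjusted p = 0.00107 by limma), with 103 to 323 reads per library. Leaving out single libraries moved it between -1.22 and -1.08, with adjusted p from 0.00102 to 0.0113. The gene (ENSG00000078579) spans 16992169 to 17002181 on the reverse strand of chromosome 8 (GRCh38) and overlaps no other gene of the table.

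FGF18, of the FGF8 subfamily and known for its part in bone, cartilage and lung growth, was far lower. Its level was 1.37, 1.21 and 0.945 FPKM in the shCtrl libraries, against 0.414, 0.589 and 0.654 FPKM in those of shS1#1. The groups did not overlap, and the spread within each was wide for the level. The mean was 52.9% lower, at 0.552 ± 0.124 after 1.17 ± 0.212 FPKM (SD, n = 3 per group), a proportion close to that of FGF20. The log2 fold change of FGF18 was -0.97 (95% interval -1.56 to -0.38, adjusted p = 0.0480 by limma). Only 12 to 43 reads per library covered it, and the adjusted p rose to between 0.0820 and 0.179 without shCtrl replicate 1, 2 or 3 or shS1#1 replicate 1 or 3. Without the filter on low values its adjusted p was 0.0944 by limma. The pseudocount weighs on a gene this low, and the log2 fold change of FGF18 was -0.48 with a pseudocount of 1 and -1.08 by voom on the recovered reads.

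FGF2 is a ligand without a classical signal peptide that is stored on heparan sulphate. Its shCtrl values were 0.633, 0.664 and 0.717 FPKM. In shS1#1 it was at 0.515, 0.863 and 0.797 FPKM, so that the groups overlapped and shS1#1 replicate 1 was the lowest of all 6. The log2 fold change of FGF2 was 0.07 with a 95% interval from -0.54 to 0.69 (adjusted p = 0.874 by limma). A change of FGF2 by the proportion seen for FGF20 lies outside this interval, while smaller changes in either direction lie inside it. The sign turned, with values of -0.05 and -0.0017, without shS1#1 replicate 2 or 3. FGF2 shares 9540 bases with NUDT6 on the opposite strand, which was at 0.211 to 0.337 FPKM in every library, and no source says that reads were assigned by strand. Summed over FGF2, FGF18 and FGF20, ligand transcripts were at 11.1 to 13.4 FPKM in shCtrl and 5.55 to 6.31 FPKM in shS1#1 libraries. FGF20 supplied 83.9% to 86.0% of this sum in shCtrl and 75.4% to 83.3% in shS1#1 libraries.

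FGFBP1 is a secreted protein that releases FGFs from heparan sulphate in the matrix. The control values of 6.08, 6.36 and 7.72 FPKM stood beside 6.10, 4.95 and 7.09 FPKM after knockdown, and the groups overlapped over most of their range. The lowest value was that of shS1#1 replicate 2. The log2 fold change of FGFBP1 was -0.16 with a 95% interval from -0.53 to 0.22 (adjusted p = 0.532 by limma), and it was between -0.28 and -0.02 with single libraries left out. The carrier thus did not pass the test, and its interval holds no change as large as that of FGF20.

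**Figure D2:**
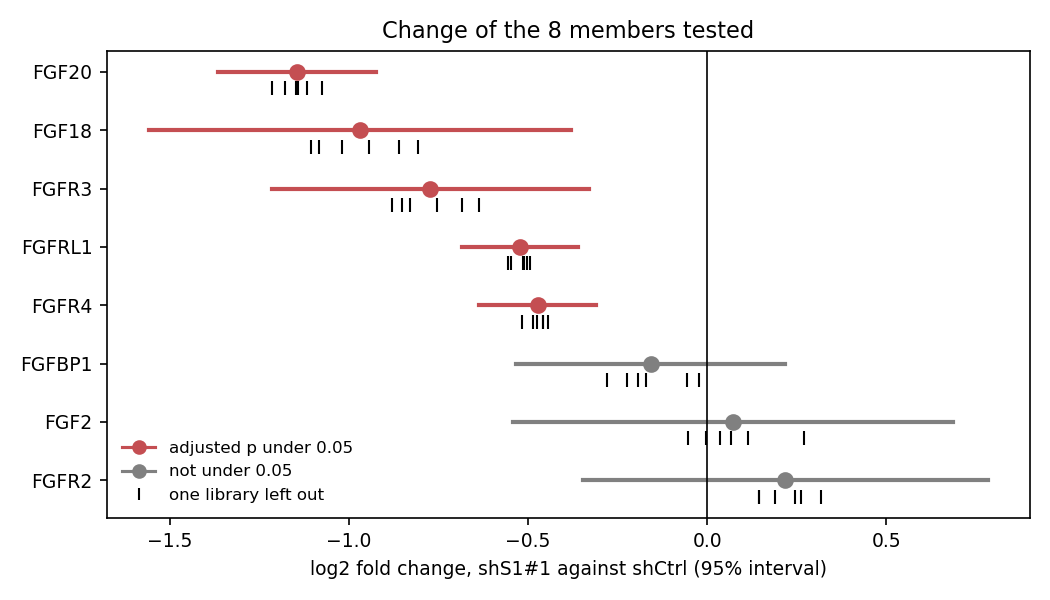
Log2 fold change (shS1#1 against shCtrl, on the log2(FPKM + 0.1) scale) of the 8 genes tested, with 95% intervals from limma. Red marks an adjusted p under 0.05, grey the others, and black ticks give the estimate with each library left out in turn. The intervals of FGF20, FGF18, FGFR3, FGFRL1 and FGFR4 lie below 0, and those of FGFBP1, FGF2 and FGFR2 span it.

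FGFR4 was the most abundant of the 10 genes and made up most of the FGF receptor transcripts. It was at 13.3, 14.7 and 14.4 FPKM in shCtrl replicates 1 to 3 and at 10.2, 9.94 and 10.3 FPKM in shS1#1 replicates 1 to 3. The shS1#1 libraries were nearly equal and all below the lowest control. The mean fell by 28.2%, from 14.1 ± 0.767 to 10.1 ± 0.197 FPKM (SD, n = 3 per group), a log2 fold change of -0.47 (95% interval -0.64 to -0.31, adjusted p = 0.00794 by limma). From 657 to 1183 reads per library covered FGFR4. Without shCtrl replicate 2 its adjusted p was 0.0526, and in the other 5 fits with a library left out it was at most 0.0488.

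FGFR3, which restrains cartilage growth and is mutated in bladder cancers, was about an order of magnitude lower than FGFR4. Its values were 1.43, 1.91 and 1.72 FPKM in the shCtrl libraries, and 1.06, 1.02 and 0.761 FPKM in the shS1#1 libraries. The groups did not overlap, with shCtrl replicate 1 nearest to the shS1#1 range. The log2 fold change of FGFR3 was -0.77 (95% interval -1.21 to -0.33, adjusted p = 0.0403 by limma), a mean 43.8% lower. With a pseudocount of 1 it was -0.46, and without the filter on low values the adjusted p was 0.0875. Coverage was 54 to 154 reads per library. The adjusted p of FGFR3 was 0.0309 without shS1#1 replicate 2 and between 0.0571 and 0.156 without shCtrl replicate 1, 2 or 3 or shS1#1 replicate 1 or 3.

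FGFRL1 has the extracellular part of an FGF receptor and no kinase domain. It was at 12.8, 14.0 and 13.6 FPKM in shCtrl and 9.20, 9.71 and 9.12 FPKM in shS1#1 libraries, again with no overlap. From a mean of 13.5 ± 0.601 it fell by 30.6% to 9.34 ± 0.321 FPKM (SD, n = 3 per group). The log2 fold change of FGFRL1 was -0.52 (95% interval -0.68 to -0.36, adjusted p = 0.00546 by limma). With 551 to 965 reads per library, it stayed between -0.56 and -0.49 when single libraries were left out, with an adjusted p of at most 0.0412. FGFR4 and FGFRL1 stood in a ratio of 1.04 to 1.06 in the shCtrl libraries and of 1.02 to 1.13 in the shS1#1 libraries.

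FGFR2, whose splice forms divide between epithelial and mesenchymal cells, had control values of 0.608, 0.515 and 0.624 FPKM. After knockdown they were 0.723, 0.588 and 0.776 FPKM. The groups overlapped, and FGFR2 had a log2 fold change of 0.22 with a 95% interval from -0.35 to 0.78 (adjusted p = 0.566 by limma). The annotation lists 27 transcripts of FGFR2 and 16 of FGFR4, and values per gene do not tell the splice forms apart. FGFR1, the receptor typical of mesenchymal cells, had 1 to 4 reads in the shCtrl and 4 to 6 in the shS1#1 libraries. Its summed reads were 7 (exact Poisson 95% interval 2.81 to 14.4) in shCtrl and 16 (9.15 to 26.0) in shS1#1, intervals that overlap and cover counting error only. FGFR1 also shares 9313 bases with LETM2 on the opposite strand, so reads of the 2 genes may not be separable. KLB, the single-pass partner of FGFR4 for FGF19, had 14 summed reads in shCtrl (7.65 to 23.5) and 22 in shS1#1 (13.8 to 33.3). FGFR1 was the 1 member whose FPKM was higher in every shS1#1 library than in any shCtrl library, at 0.0198 to 0.0317 against 0.00468 to 0.0173 FPKM. Both genes were below the expression filter, and in the fit without it the log2 fold change was 0.20 for FGFR1 and 0.30 for KLB (adjusted p = 0.571 and 0.600 by limma).

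**Figure D3:**
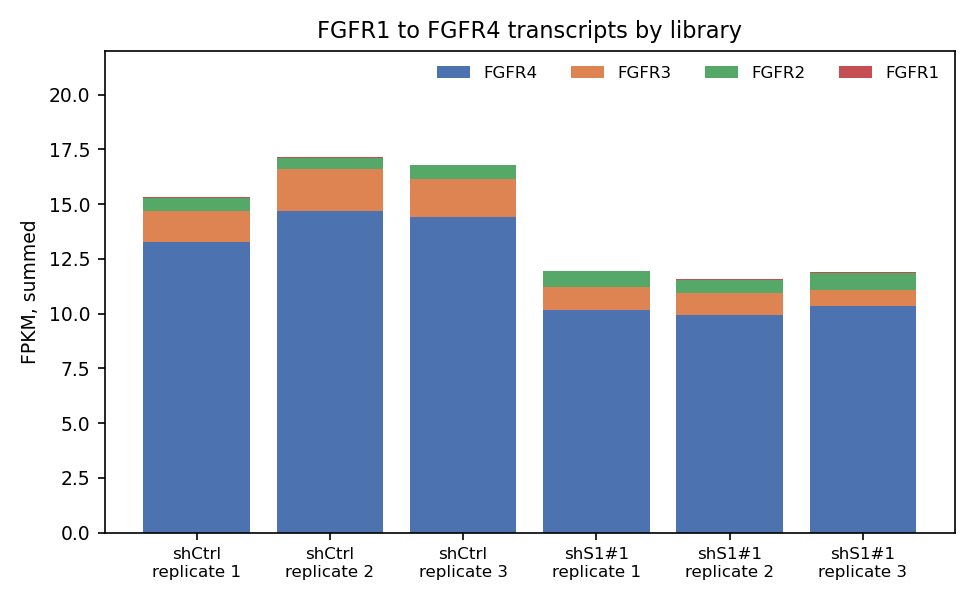
FGFR1 to FGFR4 transcripts stacked by library, in FPKM. The 3 shS1#1 stacks reach 11.6 to 12.0 FPKM and the 3 shCtrl stacks 15.3 to 17.1 FPKM, and FGFR4 fills most of each stack in both groups.

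Together the 4 kinase receptors summed to 16.4 ± 0.972 FPKM in shCtrl and 11.8 ± 0.200 FPKM in shS1#1 cells (SD, n = 3 per group). FGFR4 held 86.1% ± 0.440 of the sum in shCtrl and 85.9% ± 0.955 in shS1#1, so its share overlapped between the groups while its level did not. FGFR3 held 9.35% to 11.1% of the sum in shCtrl and 6.40% to 8.86% in shS1#1 libraries. The share of FGFR2 was 3.00% to 3.97% in shCtrl and 5.08% to 6.52% in shS1#1 libraries. These shares are of 1 sum, which was itself lower in shS1#1 cells, so they do not vary independently of each other.

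In shCtrl cells the order of mean level per gene length was FGFR4, FGFRL1, FGF20, FGFBP1, FGFR3, FGF18, FGF2, FGFR2, KLB and FGFR1. Of the neighbours in this order, FGFR4 and FGFRL1 had overlapping ranges, and all other pairs of neighbours did not overlap. FGFR4 stood above 79.6% of all genes tested in shCtrl cells, FGF20 above 72.9%, and FGFR2 above 5.84%. In shS1#1 cells FGFBP1, at 6.04 ± 1.07 FPKM (SD, n = 3), stood above FGF20 with no overlap. FGF18 moved from rank 6 in shCtrl cells to rank 8 in shS1#1 cells, where FGFR3, FGF2, FGFR2 and FGF18 formed a run in which each overlapped the next.

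**Figure D4:**
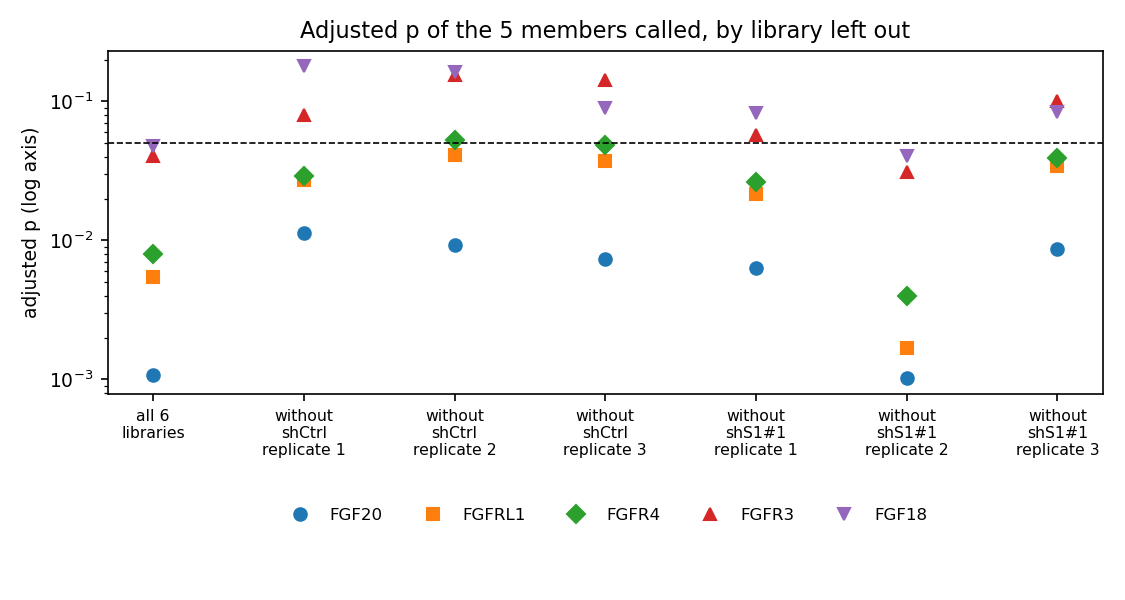
Adjusted p (log axis) by limma of the 5 members called, with all 6 libraries and with each library left out. The dashed line is 0.05. FGF20 and FGFRL1 are under it throughout, FGFR4 is above it without shCtrl replicate 2 (0.0526), and FGFR3 and FGF18 are under it with all libraries and without shS1#1 replicate 2.

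The upstream sequence is shown for FGFR4, FGFR3 and FGF18. These genes were called lower, and at least part of the window before a RefSeq start of each lies outside annotated exons. For FGF20, which was also called lower, and for FGFR1, no upstream sequence was examined. The sequences come from RefSeq on GRCh38.p14, run 5′ to 3′ on the forward strand, and end at the last base before the start or before the first annotated exon. Capitals mark the GC box GGGCGG on either strand.

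FGFR4, chr5:177086765-177086885: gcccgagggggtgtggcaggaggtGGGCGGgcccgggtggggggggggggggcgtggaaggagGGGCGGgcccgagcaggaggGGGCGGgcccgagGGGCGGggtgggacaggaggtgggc

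FGFR3, chr4:1793143-1793292: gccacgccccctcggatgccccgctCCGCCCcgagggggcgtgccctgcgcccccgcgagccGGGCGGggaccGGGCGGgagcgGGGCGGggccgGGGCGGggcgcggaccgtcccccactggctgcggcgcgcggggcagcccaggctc

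FGF18, chr5:171419497-171419646: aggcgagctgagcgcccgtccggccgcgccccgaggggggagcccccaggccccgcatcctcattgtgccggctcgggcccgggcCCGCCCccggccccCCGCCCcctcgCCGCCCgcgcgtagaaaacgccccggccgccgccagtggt

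In the 150 bases before these starts the GC box occurred 4 times for FGFR4, 5 times for FGFR3 and 3 times for FGF18. It was present in 36.8% of 35116 RefSeq windows of this length. It also occurred 3 times before the first start of FGFR2 and once before that of FGF2, genes that did not pass the test, and 0 times before FGFBP1 or KLB. Annotated exons cover 123 bases of the FGF2 window, 77 of the KLB window and 14 of that FGFR2 window. They also cover 29 bases of the FGFR4 window printed in part above. The window of FGFRL1, with 3 GC boxes and a GC content of 73.3%, lies within an annotated exon and is not printed. Over the full 150 bases, with the exon bases of FGFR4, GC content was 83.3% for FGFR4, 87.3% for FGFR3 and 82.7% for FGF18. The median over all windows was 60%. The windows of FGFR4, FGFR3 and FGF18 held no TATAAA and no TGANTCA on either strand, letters found in 6.71% and 4.17% of all windows. FGFR4 has another RefSeq start at 177089550, with a GC content of 52.7% and no GC box, and values per gene do not separate the starts.

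The members lie on 4 chromosomes, with 5 of the 10 on chromosome 4. FGFRL1 (1009936 to 1026897) and FGFR3 (1793293 to 1808872) are 766 kb apart near the tip of its short arm, and FGF18 (171419656 to 171457623) and FGFR4 (177086886 to 177098144) are 5629 kb apart on chromosome 5. Genes within 500 kb were counted after the members' values had been seen. Of all genes tested, 5.17% were called lower and 14.0% in either direction. The windows around FGFRL1 and FGFR3 overlap, so a gene may be counted in both. Of 24 other genes tested within 500 kb of FGFR4, 1 was called lower (RGS14) and 0 higher. Around FGFRL1, 2 of 21 were called lower (SPON2 and CPLX1) and 0 higher, and around FGFR3, 1 of 16 was lower (NAT8L) and 1 higher (MXD4). Within 500 kb of FGF18, 0 of 2 genes were called, and of 4 around FGF20, 1 was lower (SLC7A2).

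Among 19 other FGF ligands, 7 had 0 reads in every library and 17 were below the filter. Both that were tested, FGF3 and FGF19 of 11q13, were called lower, beside 5.17% of all genes tested. Their log2 fold changes were -1.42 and -1.26 (adjusted p = 0.00745 and 0.0210 by limma). FGF19 is the hormone that acts through FGFR4 and KLB, and it lost its call without shCtrl replicate 1, 2 or 3. In these cells the ligands FGF3, FGF19, FGF18 and FGF20, the receptors FGFR4 and FGFR3 and FGFRL1 were thus called lower in the same comparison. The tested FGF2, FGFBP1 and FGFR2 were not called, and FGFR3 and FGF18 held their calls in only 1 of the 6 fits without a library.

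The list of co-receptors and heparan sulphate genes had 18 of 34 genes tested, of which 4 were called higher, 1 lower and 13 not called, with a median log2 fold change of 0.26. The share called was 27.8%, beside 14.0% of all genes tested. SULF2, a sulphatase that trims heparan sulphate, rose from 2.81 ± 0.144 to 6.17 ± 0.0145 FPKM (SD, n = 3 per group; log2 fold change 1.11, adjusted p = 0.000617 by limma). FLRT3, a membrane protein that binds FGF receptors, rose by 1.06 and SDC4, a heparan sulphate proteoglycan, by 0.74 on the log2 scale. GLCE, an epimerase of heparan sulphate synthesis, was the 1 called lower, with a log2 fold change of -0.49. The count of 5 calls was 2 without shCtrl replicate 1 or 2, 3 without shCtrl replicate 3 or shS1#1 replicate 3, and 10 without shS1#1 replicate 2, where 4330 of all 15556 genes were called. SULF2 and FLRT3 were called in all 6 of these fits.

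Of the 24 genes of the intracellular signal, all passed the filter, 1 was called higher, 1 lower and 22 not, with a median log2 fold change of 0.08. The share called was 8.33%, beside 14.0% of all genes tested. GAB1, an adaptor that recruits PI3K, had a log2 fold change of 0.59 (adjusted p = 0.0322 by limma), and the adaptor CRKL one of -0.40 (adjusted p = 0.0107 by limma). FRS2, the adaptor on which FGF receptors depend, was at 5.73 ± 0.442 and 5.80 ± 0.967 FPKM (SD, n = 3 per group). The 2 calls of this list became 0 without shCtrl replicate 1, 2 or 3, 1 without shS1#1 replicate 3 and 8 without shS1#1 replicate 2, where 4330 of all 15556 genes were called.

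Of 21 feedback and target genes, 20 were tested, 7 were called higher, 2 lower and 11 not, with a median log2 fold change of 0.16. The share called was 45.0%, beside 14.0% of all genes tested, of which 1372 were higher and 805 lower. The phosphatase DUSP4 rose by 2.19 and DUSP5 by 0.91 on the log2 scale, PHLDA1 by 0.77 and SPRY3 by 0.59. DUSP6, SPRED2 and ETV4 were the other genes called higher, with log2 fold changes of 0.58, 0.31 and 0.30. EGR1 was called lower, at -0.41. SPRY1, a Sprouty inhibitor, fell by 0.73 on the log2 scale (adjusted p = 0.0422 by limma). Among the 11 not called, SPRY2, SPRY4 and ETV5 had log2 fold changes of -0.01, 0.11 and -0.05, with adjusted p of 0.982, 0.528 and 0.701 by limma. The genes of this list therefore went in both directions, and these transcripts also answer to other receptors. The 9 calls became 4 (PHLDA1, DUSP6, DUSP5 and DUSP4) without shCtrl replicate 1, 2 or 3 or shS1#1 replicate 3, and 6 without shS1#1 replicate 1.

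**Figure D5:**
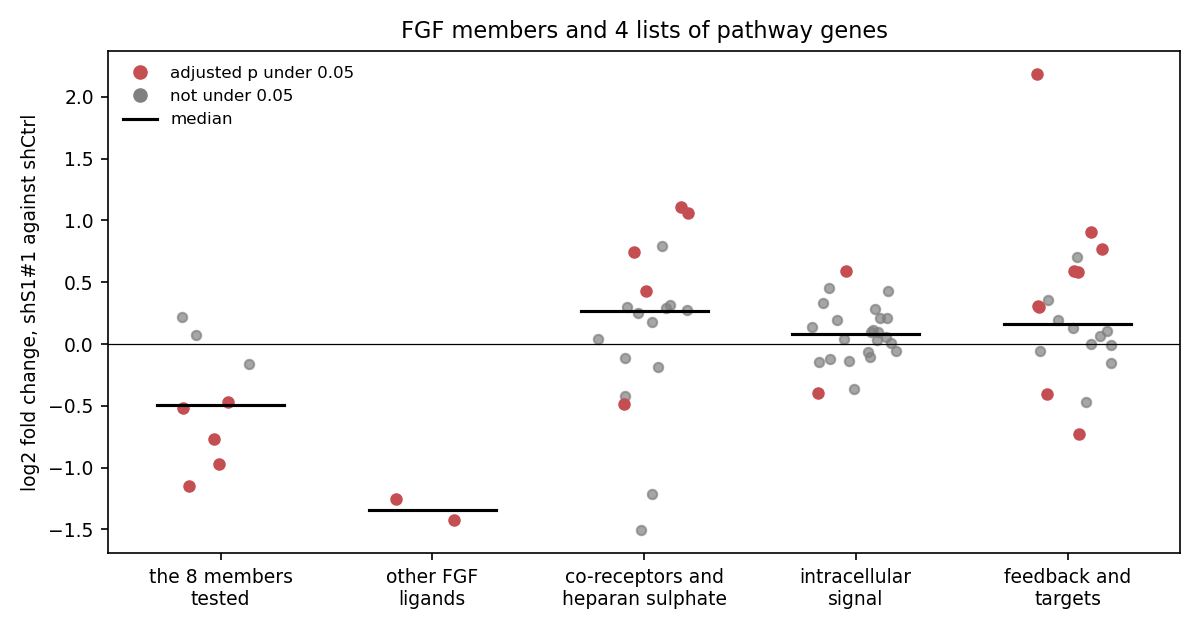
Log2 fold change (shS1#1 against shCtrl) of the 8 FGF members tested and of 4 lists of pathway genes. Each point is a gene, red at an adjusted p under 0.05 by limma and grey otherwise, and black bars are medians. The members have a median of -0.50 and the lists medians of -1.34 (2 genes), 0.26, 0.08 and 0.16.

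The patterns most like those of the called members with a mean of at least 5 FPKM were looked up by Pearson's r of log2(FPKM + 0.1) over the 6 libraries, among 11529 protein-coding genes. For FGF20 they were SLC16A14, CEBPG and STOM, each with r of 0.999. For FGFR4 they were ASB13 (0.998), ST3GAL2 (0.998) and PKN3 (0.997), and for FGFRL1 TNC, SLC9B2 and GVQW3 (0.996 each). All of these genes were lower in shS1#1 cells by their means, from 12.5% for CEBPG to 78.3% for TNC. CEBPG, ST3GAL2 and GVQW3 were not called (adjusted p = 0.0763, 0.0640 and 0.231 by limma). An r over 0.95 was reached by 363 genes for FGF20, 350 for FGFR4 and 317 for FGFRL1, as any gene that separates the 2 groups with small spread scores high over 6 libraries that share the group difference.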

How the data were processed

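RNA-seq of 3 shCtrl and 3 shS1#1 samples of NCI-N87 cells was analysed. The authors deposited FPKM values for each gene and library, without pooling. Per the labels, the submitters' processing notes name HISAT2 2.0.5, featureCounts 1.5.0-p3, DESeq2 1.20.0 and hg38. Each library had 1 step of which FPKM times gene length was a whole multiple, for 100% of values above 0 (tolerance 0.02 reads, or the printed digits for high counts), which gave reads per gene. These steps already held a size factor per library (0.914 to 1.11), so values were used as deposited. The members' coordinates equal those of GENCODE 29 on GRCh38.

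limma 3.58.1 in R 4.3.3 (lmFit, eBayes with a mean-variance trend) was run on log2(FPKM + 0.1) of 15556 genes averaging 0.5 FPKM or more, with Benjamini-Hochberg adjustment over all of them. The filter was kept when libraries were left out. Genes were called at an adjusted p under 0.05. The fit was tested on simulated reads. Members and lists were chosen with earlier results of these data known. Genes named are SCAMP1, the members, protein-coding genes overlapping them, FGF3, FGF19 and the 3 nearest patterns. Called list genes changed at least 1.5-fold (at most 8 a list) are also named. Others were chosen after their values were seen. Motifs and neighbours were counted in Python 3.11.15 with pandas 2.3.3.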

Additional observations from a re-analysis of the deposited data

How the results depend on the processing

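Alternatives were a pseudocount of 1 or 0.01, no filter, a filter at 1 FPKM, scaling to total reads (which moved the median log2 fold change of all genes from -0.02 to -0.09), no trend, voom, protein-coding genes only, the replicate number as a block, and leaving out each library. FGF18, FGF2 and FGFR2 were not tested at 1 FPKM. FGF20 and FGFRL1 were called in every setting. The members called numbered 3 without a filter and 3 with the replicate block (FGFR4, FGFRL1 and FGF20 in both; with the block the adjusted p was 0.0987 for FGFR3 and 0.130 for FGF18), and 2 to 5 with a library left out. Among the 8 members tested, in the settings that gave them a value, FGF2 changed sign in 2 fits (-0.0526 without shS1#1 replicate 2 and -0.00168 without replicate 3, in a range up to 0.27 over the libraries left out), and no other member did. Of 15556 genes, 958 were called with the block and 808 to 4330 with a library left out, the highest without shS1#1 replicate 2. The calls ranged with a library left out from 1 to 2 among other ligands, from 2 to 10 among co-receptors, from 0 to 8 in the intracellular list and from 4 to 13 among feedback genes. Co-receptor calls were 8 with voom, 8 among protein-coding genes and 3 with the block. Intracellular calls were 1 without a filter and 0 with the block, and feedback calls 4 with the block. The cause of these moves was not tested. Same-numbered libraries hardly deviated together (r of -0.0351, 0.0325 and 0.0668), so no pairing by number was seen. Replicates 2 and 3 correlated best with their own number, and replicate 1 did not. Depth limits FGF18, FGFR1 and KLB most.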
